A study of Mus musculus with 8 samples.

Results

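The deposited expression table of embryonic mouse stomach lists assembled loci, stretches of the genome at which overlapping sequence fragments were joined into transcripts, and 3582 of its 26747 loci carry no gene name. Described here are the 3194 unnamed loci whose raw fragments summed to at least 40 over the 8 libraries. They were chosen by that sum alone, without regard to genotype. Of the other 388 unnamed loci, 1 was listed at 0 fragments. Just inside the threshold lay XLOC_012165, XLOC_014256 and XLOC_014262 with 40 fragments each, and just outside it XLOC_009491, XLOC_016951 and XLOC_020347 with 39 each.

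Stomachs of E13.5 mouse embryos gave 4 wild type libraries and 4 of the genotype NKX3.2Cre;R26-YAP5SA, called YAP5SA here. Cre recombinase under control of Nkx3-2, a gene of the stomach mesenchyme, there releases from Rosa26 a form of YAP that the Hippo kinases cannot inhibit. No library with Cre alone was analysed here, so effects of Cre at Nkx3-2 and of active YAP cannot be told apart, and the labels do not say whether a library was 1 embryo or a pool. The p-values therefore measure the spread between these libraries, which may in part be technical. The sources used here give neither strain nor litter.

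Loci without a name are of several kinds. A processed pseudogene is a copy of a messenger RNA that was written back into the genome, and its sequence can be so like that of its source gene that short reads cannot be placed between them with certainty. A long noncoding RNA is transcribed and often spliced but is not translated, and many start beside genes for developmental transcription factors. Other unnamed loci are parts of protein-coding genes, often their last exons, that the assembler did not join to the named gene. YAP is a coactivator without a DNA-binding domain of its own. It acts in the nucleus through TEAD transcription factors, which bind the core motif GGAATG.

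Libraries held 6328344 to 8513116 fragments, of which the 3194 loci took 1.83% to 1.95%. The sex-linked RNA Xist stood at 836 to 1069 CPM (fragments scaled to a common library size) in wild type 4 and in YAP5SA 1, 3 and 4. It stood at 0.44 to 2.06 CPM in wild type 1 to 3 and YAP5SA 2. The Y-linked gene Ddx3y ran the other way, at 91.8 to 124 CPM in those 4 libraries and at 0 to 0.16 CPM in the rest. The 2 patterns were thus unevenly spread over the genotypes. For loci picked for naming, values with Xist as a covariate are given below where they end a call. No such value was drawn for the called copies Gstm2-ps1, Gm12892, Gm5454, Gm8834 and CT030642.2. The same holds for XLOC_010040, XLOC_023885, XLOC_023460 and the loci of Gm11266. Stomach mesenchyme was present by its marker Barx1, at 140 to 180 CPM in every library. The summed level of macrophage genes was 422 to 521 CPM in wild type and 678 to 935 CPM in YAP5SA. For liver genes these ranges were 58.5 to 132.5 and 92.0 to 287 CPM, and for skeletal muscle genes 21.4 to 107 and 84.6 to 236 CPM. Lists of genes that fell are given below. The part of such cells in the rises was not tested. Within YAP5SA, library 1 stood farthest from the others over the 3194 loci, with a chi-square per degree of freedom of 1.87 to 1.98 against 1.13 to 1.53 among the other 3. No pair of libraries agreed within counting error.

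Sequences of 3 kinds carry the results that follow. The first is the stretch of the processed pseudogene Rps13-ps2 that lies under XLOC_022572, the locus with the largest difference between the genotypes. Its 105 bases, on the minus strand of chr7:88530446-88530550 (mm10, GENCODE M21), are identical to the coding sequence of Rps13, a protein of the small ribosomal subunit.
Rps13-ps2: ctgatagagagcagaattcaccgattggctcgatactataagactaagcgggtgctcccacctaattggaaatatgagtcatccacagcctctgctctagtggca

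The second kind shows how near abundant pseudogenes are to their source. For each, the ungapped stretch of 90 bases inside the coding sequence with the most differences is printed above the same stretch of the closest protein-coding gene, and capitals mark the bases that differ. Gm7964, at chr7:83756694-83756783 on the plus strand, is a copy of Hnrnpk, which makes an RNA-binding protein. Gm12183, at chr11:48753373-48753462 on the minus strand, is a copy of Ddx5, which makes an RNA helicase. Eif4a-ps4, at chr1:60704376-60704465 on the plus strand, is a copy of Eif4a1, which makes a helicase of translation initiation. Tpd52-ps, at chr8:79680630-79680719 on the minus strand, is a copy of Tpd52. All come from GENCODE M21 transcripts on mm10.
Gm7964: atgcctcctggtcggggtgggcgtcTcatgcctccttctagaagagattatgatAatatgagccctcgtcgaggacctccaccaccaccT
Hnrnpk: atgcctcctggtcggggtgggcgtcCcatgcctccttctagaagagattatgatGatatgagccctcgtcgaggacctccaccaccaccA
Gm12183: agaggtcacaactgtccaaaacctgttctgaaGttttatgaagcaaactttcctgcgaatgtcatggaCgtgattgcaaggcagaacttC
Ddx5: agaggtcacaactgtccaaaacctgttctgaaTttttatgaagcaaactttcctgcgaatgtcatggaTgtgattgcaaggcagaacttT
Eif4a-ps4: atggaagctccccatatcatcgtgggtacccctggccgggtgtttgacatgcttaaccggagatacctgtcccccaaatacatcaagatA
Eif4a1: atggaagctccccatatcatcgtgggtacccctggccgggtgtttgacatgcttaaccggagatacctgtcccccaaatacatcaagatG
Tpd52-ps: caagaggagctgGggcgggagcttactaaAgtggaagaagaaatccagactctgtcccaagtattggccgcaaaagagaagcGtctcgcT
Tpd52: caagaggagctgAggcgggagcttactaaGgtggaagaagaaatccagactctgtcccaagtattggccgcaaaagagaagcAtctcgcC

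The third kind is the 250 bases before the start of genes at which unnamed loci differed between the genotypes, from RefSeq on GRCm38.p6 (the mm10 build), with GGAATG or its reverse complement CATTCC in capitals. The stretch before Ccn1 (the RefSeq symbol of Cyr61) is chr3:145649986-145650235 on the minus strand, and it also holds the start of the noncoding gene Gm17501, 92 bases away on the other strand. The stretches before the noncoding genes Gm12108, at chr11:32101229-32101478, and Gm29418, at chr17:85799735-85799984, are both on the minus strand. That before 9030622O22Rik, at chr2:148040487-148040736 on the minus strand, holds no match and is shown beside them.
Ccn1: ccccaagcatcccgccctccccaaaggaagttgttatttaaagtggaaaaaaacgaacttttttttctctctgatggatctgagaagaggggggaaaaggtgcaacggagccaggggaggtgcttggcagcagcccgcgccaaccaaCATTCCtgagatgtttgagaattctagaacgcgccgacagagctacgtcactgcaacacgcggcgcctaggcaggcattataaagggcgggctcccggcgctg
Gm12108: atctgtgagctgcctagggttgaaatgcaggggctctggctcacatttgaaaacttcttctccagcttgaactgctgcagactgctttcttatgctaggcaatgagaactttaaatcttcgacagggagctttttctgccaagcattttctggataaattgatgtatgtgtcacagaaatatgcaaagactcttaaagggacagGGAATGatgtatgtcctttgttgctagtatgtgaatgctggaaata
Gm29418: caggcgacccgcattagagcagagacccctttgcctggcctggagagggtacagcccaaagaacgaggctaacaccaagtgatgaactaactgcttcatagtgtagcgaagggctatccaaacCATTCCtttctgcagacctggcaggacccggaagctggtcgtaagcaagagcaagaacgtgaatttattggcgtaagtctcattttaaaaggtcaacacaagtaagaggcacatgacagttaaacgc
9030622O22Rik: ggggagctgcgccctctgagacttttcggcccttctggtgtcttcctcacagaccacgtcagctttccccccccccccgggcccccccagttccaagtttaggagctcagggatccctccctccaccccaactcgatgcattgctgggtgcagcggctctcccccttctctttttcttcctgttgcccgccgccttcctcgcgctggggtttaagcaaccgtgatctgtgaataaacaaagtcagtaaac
Both strands of windows of 300 bases, from 250 before to 50 after the start, were searched, and 14.7% of all windows in the table held the motif. Counted by gene, as below, 16.6% of all genes held it in at least 1 window. A window was found for 98 of the 259 noncoding genes under unnamed loci, and 12 of them held it. It was held by 3 of 8 noncoding genes with a window whose loci were higher in YAP5SA, and by 1 of 5 whose loci were lower. Gm12108 was among the former and Gm29418 was among the latter, so matches occurred in either direction. A match is a description of the letters, not a binding site.

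Set on the GENCODE M21 annotation, 1560 of the 3194 loci (48.8%) lay on an exon of a pseudogene, 1435 of them on a processed pseudogene, and they took 59.6% of the fragments of unnamed loci. Loci were assigned to the gene with the most exon bases under their span, however few and on either strand. At least 80% of the span lay in exons of 1 gene for 1642 of the 3194 loci. Among the 1560 pseudogene loci, 1251 had at least 80% of the span in the pseudogene exon. A further 666 lay outside annotated genes. An exon of a protein-coding gene was under 346 loci of 232 genes. For 120 of these loci the gene, 81 in all, appears nowhere in the deposited table by name. Over 278 of the 346 loci lay an annotated untranslated region. An exon of a long noncoding RNA was under 322 loci of 259 genes, of which 248 are not named in the table. Inside a gene but on no exon were 146 loci, 7 lay on a small RNA or other gene, and 4 lay on the mitochondrial genome. The last 143 are listed on the same coordinates as a named locus, so that the features under them may belong to the named gene, and 136 loci share their coordinates with another unnamed locus.

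Unnamed loci were short and sparsely covered. Their median length was 491 bases, against 30090 for named loci, and their median sum was 143 fragments, against 2528.5 for the 15362 named loci with at least 40. A single start site was assembled for 97.7% of them and for 59.7% of named loci. Pseudogene loci were shortest, with a median of 260 bases, and carried most fragments per base, 0.115 per library against 0.0131 for noncoding and 0.0156 for loci outside genes.

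Genotypes were compared by edgeR's quasi-likelihood test on the fragments of all 18556 loci of the table with at least 40 fragments, named ones included, and a call is a Benjamini-Hochberg adjusted p under 0.05 over all of them. In YAP5SA, 66 unnamed loci rose and 62 fell. These are 2.07% and 1.94% of the 3194, whereas over all loci tested 7.4% were called higher and 7.85% lower. The libraries of the genotypes did not overlap at 333 unnamed loci (10.4%), against 20.6% of all loci tested. The shares also differed at like fragment sums. Among loci with 320 to under 640 fragments, 16 of 442 unnamed ones rose and 15 fell, against 123 and 183 of 1065 named ones. The median log2 fold change of unnamed loci was -0.026, beside -0.006 over all loci. A locus with few fragments could enter only through the genotype in which it is high, and with at least 80 fragments the calls were 50 higher and 48 lower among 2322 loci. With Xist as a covariate, 42 loci were called higher and 41 lower. Leaving out 1 library gave 47 to 62 higher and 33 to 62 lower calls. The count of falls moved by over 1.5 times without wild type 2 (35), YAP5SA 2 (40), YAP5SA 3 (33) or YAP5SA 4 (37).

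**Figure D1:**
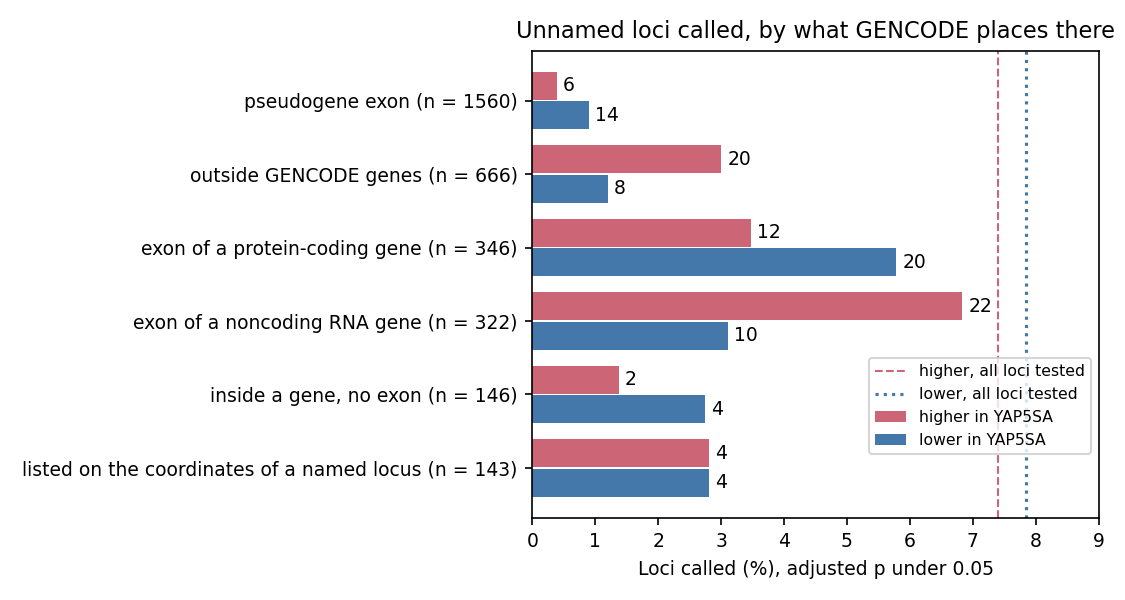
Percentage of unnamed loci called higher (red) or lower (blue) in YAP5SA for 6 annotation classes, with the number called beside each bar. The dashed and dotted lines are the percentages over all loci tested, 7.4% and 7.85%. Loci on noncoding RNA exons were called higher at 6.83%, pseudogene loci at 0.385%. The 11 loci on small RNA genes or the mitochondrial genome are not drawn.

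Calls were unevenly spread over the annotation classes, as the bar chart of calls by class shows. Of the 322 noncoding loci, 22 rose and 10 fell. Of the 346 loci on protein-coding exons, 12 rose and 20 fell. Outside annotated genes, 20 of 666 rose and 8 fell. Of the 1560 pseudogene loci, 6 rose and 14 fell.

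Densely covered loci, most of them pseudogenes, varied less between libraries than counting error alone. Over the 2785 loci of at most 2500 bases with coordinates of their own, the variance of the raw fragments within a genotype was divided by their mean, which is 1 for counting error alone. Its median was 1.69 for the 810 loci with up to 0.02 fragments per base and library, 1.21 from 0.02 to 0.05, and 0.545 from 0.05 to 0.1. It was 0.271 for the 112 loci with over 0.3. Of those 112, 98 lay on pseudogene exons, against 37 of the 810. The ratio of raw fragments in YAP5SA to wild type ran from a median of 1.19 in the sparsest loci to 1.07 in the densest, while total fragments stood at a ratio of 1.17. The median log2 fold change accordingly ran from 0.02 to -0.12. Among the 810 sparsest loci edgeR called 25 higher and 12 lower. Among the 112 densest it called 0, as did DESeq2, and 17 had an unadjusted p under 0.05 in edgeR. The sources used here do not say how fragments that match several loci were shared out, and its part in this pattern was not tested.

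**Figure D2:**
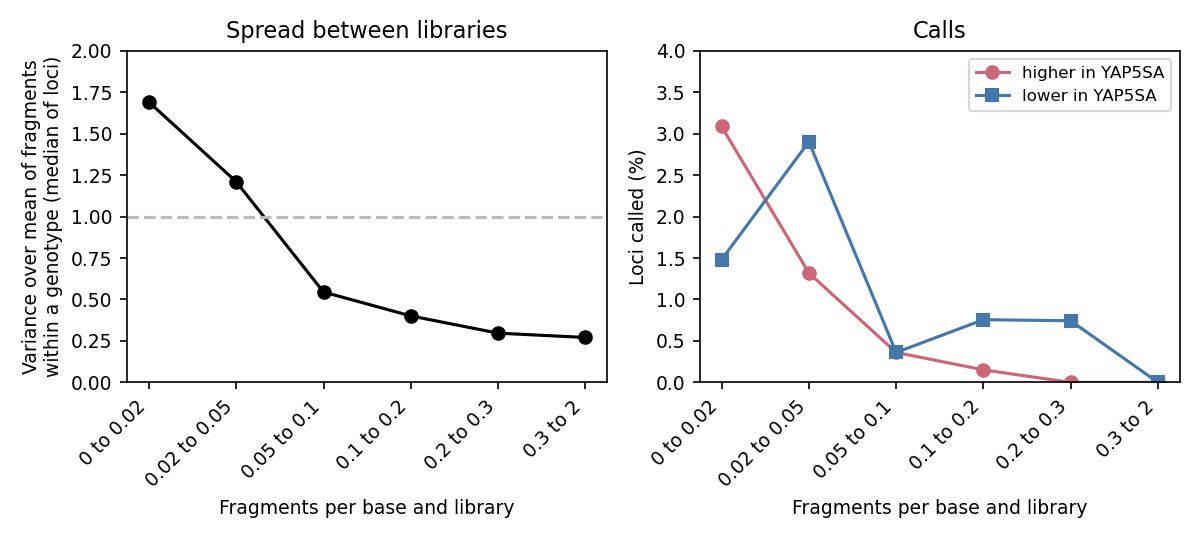
Left, median variance over mean of raw fragments between libraries of a genotype, for unnamed loci of at most 2500 bases grouped by fragments per base and library; the dashed line at 1 is counting error alone. Right, percentage of the same loci called higher or lower in YAP5SA. The median fell from 1.69 to 0.271 from the sparsest to the densest group, and the densest group held no call.

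The most abundant pseudogene loci had narrow spreads. Gm7964 (XLOC_022569), the Hnrnpk copy printed above, stood at 104, 98.9, 101 and 104 CPM in wild type and at 83.4, 97.1, 93.6 and 92.9 CPM in YAP5SA. The genotypes did not overlap, but the log2 fold change was -0.15 ± 0.05 (SE) with an edgeR adjusted p of 0.088. Gm12183 (XLOC_004527), the Ddx5 copy, stood at 88.4 ± 3.44 in wild type and 79.0 ± 3.83 CPM in YAP5SA (SD, n = 4), with an edgeR adjusted p of 0.063. Its log2 fold change of -0.16 matched that of Ddx5, also -0.16, and their difference was -0.003 ± 0.06 (SE). Eif4a-ps4 (XLOC_001374) stood at 82.5 ± 2.24 and 73.8 ± 5.23 CPM (SD, n = 4) with an edgeR adjusted p of 0.095. Gm4204 (XLOC_001433), a copy of the histone chaperone gene Nap1l1, stood at 87.3 ± 1.85 and 79.3 ± 5.55 CPM (SD, n = 4), with an edgeR adjusted p of 0.13. These levels in CPM were lower on average in YAP5SA, and none of the 4 passed the threshold. Raw fragments were higher there. Summed over wild type and over YAP5SA they were 2665 and 2787 for Gm7964 and 2311 and 2401 for Gm12183. For Eif4a-ps4 they were 2157 and 2241, and for Gm4204 2283 and 2407. The lower CPM thus come from dividing by the larger library sizes of YAP5SA. Eif4a1 shares its assembled locus with Cd68, so its own level was not separable.

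To compare pseudogenes with their source, each was matched by blastn to its closest protein-coding transcript, a test chosen after the data had been seen. A match over at least 50% of the pseudogene was found for 1542 of the 1560 loci, to 873 genes, with a median identity of 96.5%. Of these loci, 500 were at least 98% identical to the gene and 76 were identical over the match. The log2 ratio of pseudogene to closest gene was tested in 1422 pairs with limma, and it differed between the genotypes in 3 (0.211%), 1 above and 2 below. In 7 of the 13 pairs in which edgeR called the pseudogene, it called the closest gene in the same direction. Over all pairs the closest gene was called in 75 (5.27%).

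In 5 of these 7 pairs, chosen after their values were seen, the log2 fold changes of copy and gene lay within 0.1 of each other. Gstm2-ps1 (XLOC_018932) fell by 0.90 ± 0.10 on the log2 scale (SE; edgeR adjusted p = 0.00056) and Gstm1, a glutathione transferase, fell by 0.91. Gm7049 (XLOC_006591) rose by 1.20 ± 0.25 (SE; edgeR adjusted p = 0.011), beside a rise of 1.18 for Me1, the cytosolic malic enzyme. Gm12892 (XLOC_017347) fell by 0.58 ± 0.09 (SE; edgeR adjusted p = 0.0031) and Ckb, the brain creatine kinase, fell by 0.52. Gm5454 (XLOC_006632) fell by 0.80 ± 0.14 (SE; edgeR adjusted p = 0.0052), and the ETS transcription factor gene Etv1 fell by 0.72. Tpd52-ps (XLOC_023905), whose sequence is printed above, fell by 0.56 ± 0.14 (SE; edgeR adjusted p = 0.027), and Tpd52 fell by 0.63. The call on Tpd52-ps held without wild type 3 or YAP5SA 1 only, and its adjusted p was 0.052 to 0.082 without any one of the other 6 libraries. The log2 difference from the closest gene was between -0.05 and 0.09 for these 5 pairs, with limma adjusted p of 0.782 to 0.9985. Of the other pairs, CT030642.2 (XLOC_010760) rose by 0.75 and Adam12 by 0.58, with the copy called in 3 of 8 fits without 1 library. Gm8834 (XLOC_002625) fell by 1.11 and Gstm3 by 1.82, a log2 difference of 0.78 ± 0.31 (SE; limma adjusted p = 0.69). Some called loci lay far from the closest gene. XLOC_019129, on Gm4877, rose by 4.07 while the locus of Rpl7a stood at 0.14, a difference of 2.67 ± 0.47 (SE; limma adjusted p = 0.082). XLOC_019129 spans 11737 bases, of which 798 lie on the Gm4877 exon, so its rise need not be that of the copy. Rpl7a shares its assembled locus with Surf2, so its own level was not separable. Whether fragments of the genes were placed on the copies was not tested.

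**Figure D3:**
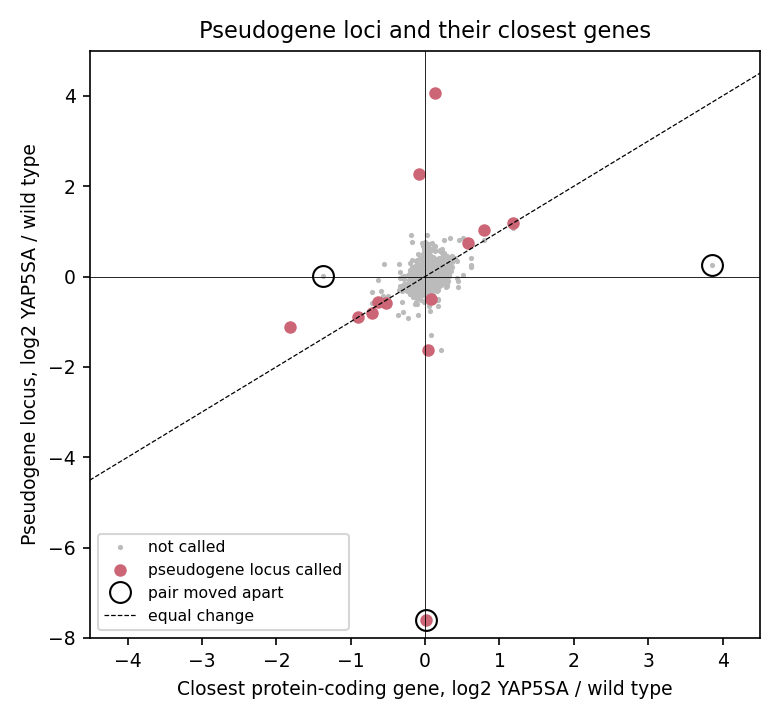
Log2 fold change of 1422 pseudogene loci against that of their closest protein-coding gene. Red points are pseudogene loci called by edgeR, circles mark the 3 pairs whose ratio differed between the genotypes, and the dashed line is equal change. The point at the bottom is Rps13-ps2, at -7.61 while Rps13 stood at 0.01.

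Rps13-ps2 lies lowest in the plot of pairs. XLOC_022572, 155 bases at chr7:88530396-88530550, stood at 8.40, 10.3, 9.87 and 10.7 CPM in wild type and at 0, 0, 0 and 0.13 CPM in YAP5SA. It was thus present in every wild type library and represented in YAP5SA by 1 fragment, in library 4, against 257 fragments in wild type. The ratio of wild type to YAP5SA was 299, with an exact counting interval of 53.3 to 11870 (95%, counting error only). The edgeR adjusted p was 2.3e-05. Rps13 itself, at chr7 too but elsewhere, stood at 19.3 ± 3.15 in wild type and 19.4 ± 3.36 CPM in YAP5SA (SD, n = 4), a log2 fold change of 0.01 ± 0.15 (SE). The log2 ratio to Rps13 fell by 5.02 ± 0.21 (SE; limma adjusted p = 4.8e-06), and by 5.41 ± 0.17 (SE) against its nearest named neighbour Rab38. The difference from Rps13 was not called on FPKM ratios with 0.1 added, where the log2 difference was -11.64 and the adjusted p 0.14. The other 2 pairs that moved apart had low identity: Gm13712 against Mia2 at 85.6% and Gm13033 against Ptgs2 at 77.6%, and in both the gene was called while the pseudogene was not.

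Where an unnamed locus close to a named one was called, most of the neighbours were called in the same direction. The nearest named locus could be tested for 2433 of the loci. Among called loci within 1000 bases of a named locus or on its coordinates, the neighbour was called in the same direction at 20 of 24 and in the other direction at 0. Over all pairs, called or not, 22 of 143 neighbours on shared coordinates (15.4%) and 57 of 417 within 1000 bases (13.7%) were called. The unnamed locus was called with them, in the same direction, at 7 of those 22 and at 13 of those 57, so most loci beside a called neighbour had no call. Within 5000 bases 32 and 0 of 49 called loci had a neighbour called the same or the other way, and beyond 5000 bases 11 and 8 of 55. The Pearson correlation of the 2 log2 fold changes across loci was 0.56 for the 143 pairs on shared coordinates, 0.54 for the 417 up to 1000 bases and 0.49 for the 496 from there to 5000 bases. It was 0.18 for the 526 from 5000 to 20000 bases and -0.02 to 0.10 beyond. Several loci share a neighbour, and all come from the same libraries, so these are descriptions.

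**Figure D4:**
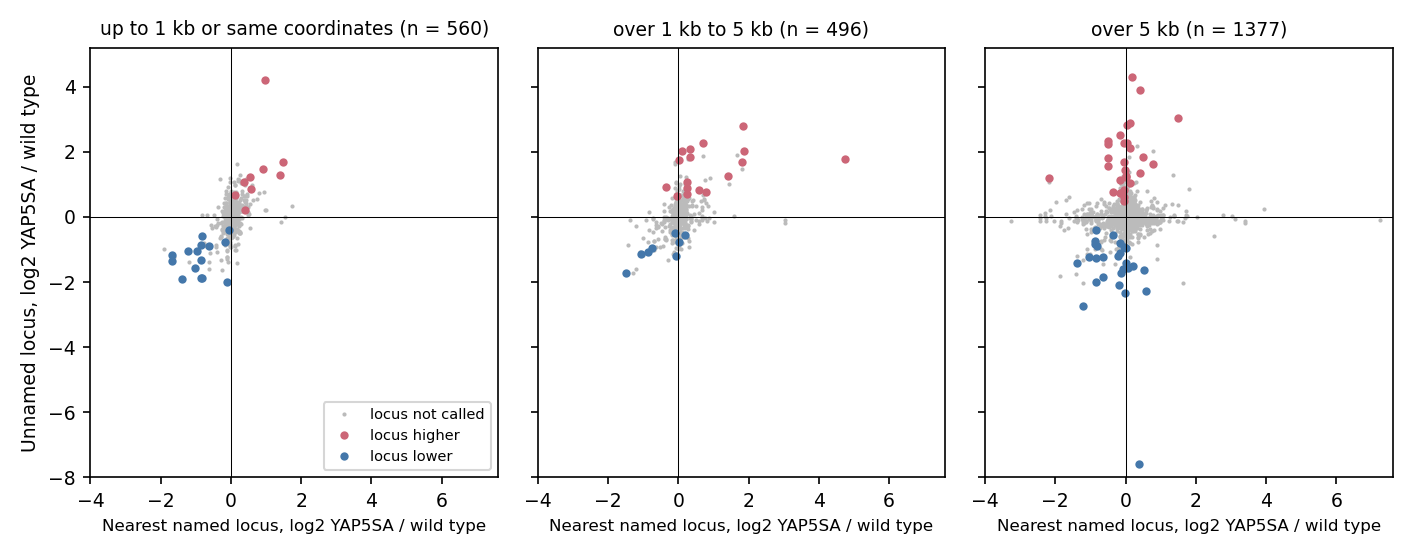
Log2 fold change of each unnamed locus against that of its nearest named locus, in 3 ranges of distance between them, with called loci in red (higher) and blue (lower). Called loci lie in the quadrants of equal direction at short distance, where 20 of 24 neighbours were called the same way. They spread along the vertical axis beyond 5 kb, where 11 of 55 were.

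Both unnamed loci within 5000 bases of a gene of the glia and neural crest list fell, but the 3 beside an enteric neuron gene did not pass the test. These are XLOC_023882, XLOC_023883 and XLOC_023884, all on the coordinates of Hand2, with edgeR adjusted p of 0.544 to 0.853. Hand2, a gene of mesenchyme as well as of that list, did not fall either. Its log2 fold change was -0.05 ± 0.07 (SE; edgeR adjusted p = 0.73). Foxd3, a transcription factor of neural crest, had 2 unnamed loci within 1000 bases. Gm12688 (XLOC_016789, chr4:99653604-99655429), a noncoding RNA 870 bases from Foxd3, stood at 13.3, 11.4, 12.7 and 12.5 CPM in wild type and at 4.29, 4.70, 4.86 and 5.77 CPM in YAP5SA. The lowest wild type library lay well above the highest YAP5SA library. The fall was 1.35 ± 0.14 on the log2 scale (SE; edgeR adjusted p = 0.00036), beside 1.68 ± 0.18 for Foxd3. XLOC_017320, 310 bases from Foxd3 and outside annotated genes, fell by 1.18 ± 0.29 (SE; edgeR adjusted p = 0.022). Its adjusted p was 0.06 to 0.064 without wild type 2, wild type 3 or YAP5SA 2, 0.06 with Xist as a covariate and 0.066 in DESeq2.

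A further pair of loci beside genes of enteric neurons, chosen after their values were seen, fell. XLOC_012245, 135 bases from Gfra1, a receptor of glial-derived neurotrophic factor that enteric neurons need, stood at 7.45, 8.498, 9.87 and 9.30 CPM in wild type. In YAP5SA it stood at 3.10, 2.77, 2.30 and 3.62 CPM, without overlap. It fell by 1.57 ± 0.18 (SE; edgeR adjusted p = 0.00061), while Gfra1 fell by 1.01 ± 0.09. XLOC_018934, on an exon of Nos1, the nitric oxide synthase of inhibitory neurons, fell from 5.31 ± 0.53 to 1.60 ± 0.28 CPM (SD, n = 4; edgeR adjusted p = 0.00052). Over the whole lists, 6 of 8 glial and neural crest genes and 9 of 12 enteric neuron genes fell. Their summed levels were 345.5 to 387 CPM in wild type and 190 to 252.5 CPM in YAP5SA for glia, and 735 to 862 and 456 to 518 CPM for neurons. In whole stomachs, fewer cells of a type and less RNA per cell cannot be told apart, and the part of either in these loci was not tested.

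Loci near Foxa2, a transcription factor gene that marks gut endoderm, were lower as well. Its noncoding neighbour 9030622O22Rik (XLOC_014016, chr2:147944005-148040210), 2668 bases away, stood at 24.9, 22.3, 24.2 and 31.9 CPM in wild type and at 19.4, 8.02, 7.97 and 11.01 CPM in YAP5SA. YAP5SA 1 was the highest of its genotype and lay just under the lowest wild type library. The fall was 1.14 ± 0.27 on the log2 scale (SE; edgeR adjusted p = 0.019), and Foxa2 fell by 1.05. That call was lost without wild type 4, YAP5SA 2, YAP5SA 3 or YAP5SA 4, at adjusted p of 0.0505 to 0.057. XLOC_014429, beside that gene and 99028 bases from Foxa2, outside annotated genes, fell from 69.5 ± 12.7 to 29.5 ± 13.7 CPM (SD, n = 4; edgeR adjusted p = 0.012), again with YAP5SA 1 highest at 49.9 CPM.

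All 20 gastric epithelium genes tested fell, and their summed level was 1519 to 1868 CPM in wild type and 747 to 1117 CPM in YAP5SA. In YAP5SA 1, Epcam stood at 87.5 CPM against 69.4 to 72.9 CPM in the other 3. The part of the epithelial share in these loci was not tested.

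Of 21 unnamed loci within 5000 bases of a stomach mesenchyme gene, 2 rose and 3 fell, and of the 16 genes tested 5 fell. On the coordinates of Six2, XLOC_010750 had a log2 fold change of -1.87 ± 0.52 (SE; edgeR adjusted p = 0.039). XLOC_006557, on those of Pitx1, stood at -0.89 ± 0.22 (SE; edgeR adjusted p = 0.024). Each of these calls was lost in 6 of the 8 fits without 1 library. Six2 marks the posterior stomach mesenchyme and fell by 0.84. At 81712 bases from it, and so not among the 21, lies XLOC_010751 (chr17:85797424-85798296). Of its 873 bases, 55 lie on exons of Gm29418, whose promoter is printed above. XLOC_010751 fell from 2.30 ± 0.97 to 0.55 ± 0.13 CPM (SD, n = 4; edgeR adjusted p = 0.0063), with wild type at 1.43 or more and YAP5SA at 0.72 or less. A second locus on Gm29418, XLOC_010040, fell by 1.27 (edgeR adjusted p = 0.0095). Gene 1700018A04Rik (XLOC_006152), 105 bases from the mesenchymal factor Foxf2, fell by 1.87 ± 0.51 (SE; edgeR adjusted p = 0.035), with wild type 3 within the YAP5SA range. Its call held without wild type 3 or YAP5SA 1 only, and the adjusted p was 0.066 to 0.093 without any one of the others.

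Upward, the clearest case near a YAP target was Gm17501 (XLOC_015029, chr3:145650424-145651950), 439 bases from Cyr61, a matricellular protein gene that YAP and TEAD switch on. It stood at 1.43, 1.61, 0.75 and 1.58 CPM in wild type and at 4.41, 7.05, 3.38 and 2.55 CPM in YAP5SA. All YAP5SA libraries were higher than all wild type libraries. Gm17501 rose by 1.68 ± 0.37 (SE; edgeR adjusted p = 0.013) and Cyr61 by 1.48 ± 0.12. Their log2 ratio differed by -0.006 ± 0.27 (SE) between the genotypes, by limma. Of the 19 YAP and TEAD target genes tested, 13 rose, and Gm17501 was the only unnamed locus within 5000 bases of one.

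Xkr4, of the XK-related family of membrane proteins, had 2 unnamed loci within 5000 bases. XLOC_001296, 250 bases away, rose from 5.12 ± 1.24 to 12.5 ± 1.33 CPM (SD, n = 4; edgeR adjusted p = 0.0017) and XLOC_001295 from 2.14 ± 0.20 to 5.18 ± 1.06 CPM (SD, n = 4; edgeR adjusted p = 0.0031). Xkr4 itself rose by 1.40. XLOC_020275, on an exon of Ndnf, a secreted neurotrophic factor, stood at 3.01, 2.198, 3.14 and 1.58 CPM in wild type. In YAP5SA it stood at 10.4, 9.68, 10.4 and 10.2 CPM, a rise of 2.03 ± 0.20 (SE; edgeR adjusted p = 0.00032). All 2195 bases of XLOC_020275 lie in an untranslated region of Ndnf. Its nearest named locus, A930038C07Rik, rose by 1.86 and lies 3138 bases away. Whether both are parts of the same gene was not tested.

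At Nkx3-2, the gene whose locus drives Cre, 2 loci outside annotated genes were higher. XLOC_018835, 2351 bases away, stood at 0.15 to 0.95 CPM in wild type and 1.21 to 3.46 CPM in YAP5SA and rose by 2.09 ± 0.47 (SE; edgeR adjusted p = 0.016). XLOC_018834, 1224 bases away, rose by 1.85 ± 0.51 (SE; edgeR adjusted p = 0.036). They hold 86 and 58 fragments in all, so the levels are low. Nkx3-2 had a log2 fold change of 0.33 ± 0.15 (SE; edgeR adjusted p = 0.18). The adjusted p of XLOC_018835 was 0.0504 without wild type 2 and 0.051 with Xist as a covariate. That of XLOC_018834 was 0.06 to 0.088 without wild type 2, 3 or 4 or YAP5SA 2 or 3.

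Some loci moved apart from their neighbour. In 76 of the 2433 pairs (3.12%) the log2 ratio of unnamed to nearest named locus was higher in YAP5SA, and in 59 (2.42%) it was lower, by limma with adjustment over the pairs. In 91 of these 135 pairs edgeR called the named neighbour but not the unnamed locus, in 22 the reverse, in 9 both and in 13 neither. Pseudogene loci made up 79 of the 135, beside 48.8% of all unnamed loci. Within 5000 bases lay 17 of the 135, and 1056 of the 2433 pairs tested. Leaving out YAP5SA 1 gave 137 such pairs. Leaving out wild type 1, 2, 3 or 4 gave 67, 71, 71 or 83, and leaving out YAP5SA 2, 3 or 4 gave 58, 59 or 88.

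The noncoding gene 5033428I22Rik beside Hand2, a mesenchymal transcription factor gene, is one such case. Its 3 unnamed loci share the coordinates chr8:57331632-57357311, 7115 bases from Hand2, and rose in each instance. Their summed level was 104, 127, 121 and 135 CPM in wild type and 168, 195, 194 and 175 CPM in YAP5SA, so no library of one genotype reached the other. XLOC_022879, the largest, rose by 0.61 ± 0.08 (SE; edgeR adjusted p = 0.0013), while Hand2 had a log2 fold change of -0.05 ± 0.07 (SE; edgeR adjusted p = 0.73). The log2 ratio of the pair rose by 0.67 ± 0.16 (SE; limma adjusted p = 0.048), which became 0.073 to 0.127 when any one library was left out. The rises of XLOC_023885 and XLOC_023460, the other loci of the gene, were called in 7 and 6 of the 8 fits without 1 library.

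A cluster of 4 loci on and beside the noncoding gene Gm12108 rose together while the nearest named gene, Nsg2, a neuronal vesicle protein gene 32298 to 38120 bases away, fell by 0.51 ± 0.15 (SE; edgeR adjusted p = 0.045). XLOC_004514 (chr11:32095151-32097244), the most abundant, stood at 3.17, 4.25, 5.83 and 3.47 CPM in wild type and at 8.34, 9.82, 15.7 and 15.6 CPM in YAP5SA. It rose by 1.55 ± 0.27 (SE; edgeR adjusted p = 0.0046). XLOC_003688 on the same gene rose by 2.24 ± 0.33 (SE; edgeR adjusted p = 0.0019). XLOC_004512 and XLOC_004513, outside annotated genes, rose by 1.81 and 2.33 (edgeR adjusted p = 0.013 and 0.017). The last had an adjusted p of 0.051 without wild type 2 and of 0.063 with Xist as a covariate. The log2 ratio to Nsg2 rose in all 4, by 2.01 to 2.53 (limma adjusted p = 0.00049 to 0.0069).

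XLOC_025047 (chr9:72769899-72779118) lies 20047 bases from the ubiquitin ligase gene Nedd4, with 527 of its 9220 bases on exons of the noncoding RNA gene Gm27204. It stood at 1.43, 2.49, 1.94 and 1.58 CPM in wild type. In YAP5SA it stood at 10.01, 14.7, 12.7 and 5.64 CPM, a rise of 2.51 ± 0.32 (SE; edgeR adjusted p = 0.001). Nedd4 had a log2 fold change of -0.17 ± 0.05 (SE; edgeR adjusted p = 0.06), and the log2 ratio of the pair rose by 2.48 ± 0.32 (SE; limma adjusted p = 0.0045). Gm11266 (XLOC_016025, XLOC_017302 and XLOC_017303), annotated as antisense and 1460 bases from the transcription factor gene Nfib, had 3 loci on shared coordinates, and all of them rose, by 0.71 to 1.08 on the log2 scale. XLOC_017302 was called in all 8 fits without 1 library, XLOC_017303 in 3 and XLOC_016025 in 2. Their summed level was 6.34 to 8.79 CPM in wild type and 12.6 to 15.9 CPM in YAP5SA. The sources used here do not state the strand of fragments, so antisense and sense RNA cannot be told apart.

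Protein-coding genes that the table does not list by name appear only through unnamed loci. The mucin gene Muc16, a large membrane protein of mesothelial and other covering epithelia, was covered by 8 loci from chr9:18495451 to chr9:18674717, and all 8 fell, by 1.88 to 2.90 on the log2 scale. Their summed level was 49.6, 98.2, 142 and 49.8 CPM in wild type and 29.2, 13.8, 19.6 and 20.1 CPM in YAP5SA, or 84.9 ± 44.3 and 20.7 ± 6.35 CPM (SD, n = 4). Every wild type library was higher than every YAP5SA library, but wild type 2 and 3 lay far above wild type 1 and 4. XLOC_024697, the longest stretch, fell by 2.11 ± 0.37 (SE; edgeR adjusted p = 0.0044), and had 0.075 to 0.077 by limma on log2 FPKM.

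The calls across Muc16 were less steady than their direction. With Xist as a covariate, XLOC_024697 alone of the 8 kept an adjusted p under 0.05, and the others had 0.061 to 0.235. XLOC_024699 was called only in the fit without wild type 4, among those that left out 1 library, with 0.055 to 0.12 in the rest. XLOC_024701 was not called without wild type 2, wild type 3, YAP5SA 2, YAP5SA 3 or YAP5SA 4, and XLOC_025312 not without wild type 2, YAP5SA 2 or YAP5SA 3, with values of 0.051 to 0.078. Of 6 mesothelial genes 2 fell, and their summed level was 385 to 556 CPM in wild type and 342 to 412 CPM in YAP5SA. The mesothelial marker Upk3b stood at 104, 121, 147 and 93.0 CPM in wild type and at 78.3 to 93.1 CPM in YAP5SA. Wt1, another marker, stood at 112 ± 24.6 in wild type and 130 ± 9.11 CPM in YAP5SA (SD, n = 4). Msln stood at 16.4 to 26.8 CPM in wild type and 4.97 to 28.5 CPM in YAP5SA, highest in YAP5SA 1. The part of mesothelium in the Muc16 loci was not tested.

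Adh6b, an alcohol dehydrogenase gene, was seen through XLOC_015008 (chr3:138352341-138358856), with 1829 of the 6516 bases of that locus on its exons. XLOC_015008 stood at 0.16 to 0.30 CPM in wild type, 6 fragments in all, and at 5.13, 4.29, 7.43 and 2.28 CPM in YAP5SA, with 146 fragments. The rise was 4.28 ± 0.49 on the log2 scale (SE; edgeR adjusted p = 0.00056). Ccdc187, seen through XLOC_014291 (chr2:26243473-26248357), stood at 16.2, 22.6, 23.9 and 13.1 CPM in wild type and at 4.41, 3.46, 2.97 and 4.03 CPM in YAP5SA. It fell by 2.34 ± 0.23 (SE; edgeR adjusted p = 0.00029), and the neighbouring gene Qsox2 had a log2 fold change of -0.003 ± 0.08 (SE). XLOC_017932, with 578 of its 16533 bases on exons of Wdr66, fell by 2.10 ± 0.46 (SE; edgeR adjusted p = 0.013). It stood at 1.20 to 3.78 CPM in wild type and 0.36 to 0.67 CPM in YAP5SA. It held 53 fragments in wild type, 24 of them in wild type 4, and 14 in YAP5SA.

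Outside annotated genes lay the largest rise among unnamed loci. XLOC_006412 (chr13:98530138-98535865), 95073 bases from the nearest named locus, stood at 0.48, 0.73, 0.30 and 0.16 CPM in wild type and at 24.4, 13.4, 7.56 and 3.09 CPM in YAP5SA. Every YAP5SA library lay above every wild type library, with a wide spread within YAP5SA. The rise was 4.802 ± 0.75 on the log2 scale (SE; edgeR adjusted p = 0.0027). XLOC_009358 (chr16:94031785-94057151), 22948 bases from Cldn14, stood at 0.44 to 1.05 CPM in wild type and was even across YAP5SA, at 5.25, 5.67, 5.54 and 7.38 CPM. It rose by 2.93 ± 0.27 (SE; edgeR adjusted p = 0.0002).

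In 3 further loci wild type held 2 fragments in all. XLOC_007476 (chr14:98980755-98984148) held 56 in YAP5SA, a ratio of 24.0 with an exact counting interval of 6.35 to 203 (95%), and XLOC_008627 (chr15:97102570-97103117) held 42, a ratio of 18.03 with an interval of 4.69 to 154. On the coordinates of a named locus that joins the keratin genes Krt14 and Krt17, XLOC_004613 held 52, a ratio of 22.3 with an interval of 5.88 to 189. That named locus rose by 0.96 ± 0.15 (SE; edgeR adjusted p = 0.0028). The log2 ratio of XLOC_004613 to it rose by 1.43 ± 0.38 (SE), without a call (limma adjusted p = 0.071). These 3 unnamed loci passed the threshold of 40 through their YAP5SA fragments. Of the falls outside genes, XLOC_023047 (chr8:88480421-88485049) stood at 9.98, 7.33, 7.03 and 10.6 CPM in wild type and at 3.46, 1.25, 1.62 and 0.67 CPM in YAP5SA. It fell by 2.28 ± 0.39 (SE; edgeR adjusted p = 0.0038), while its nearest named locus, the Wnt inhibitor gene Nkd1 at 36295 bases, rose by 0.57.

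**Figure D5:**
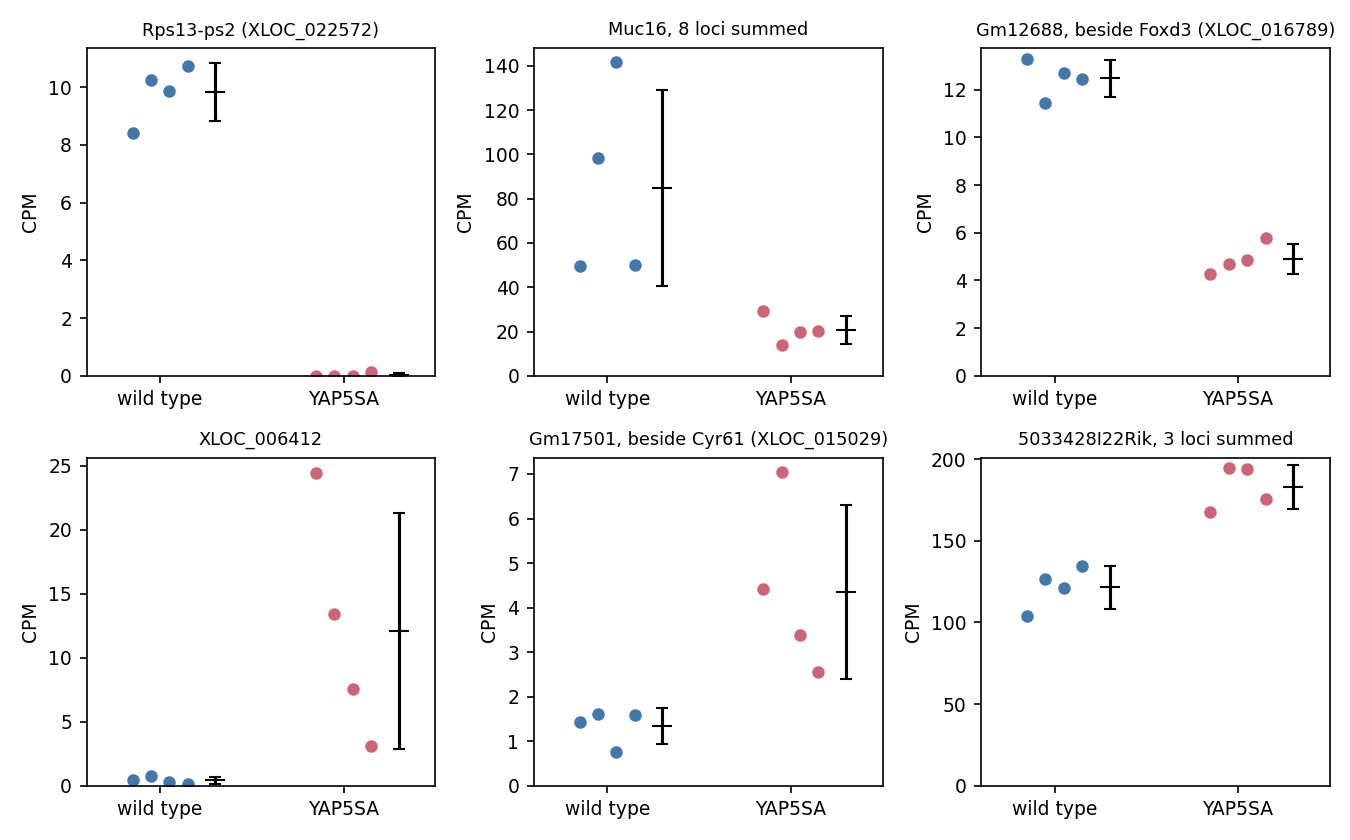
Level in CPM of 6 unnamed loci or sets of loci in each library (points, wild type blue and YAP5SA red), with the mean and SD of 4 libraries in black. Rps13-ps2 was near 0 in all YAP5SA libraries, the 8 Muc16 loci spread from 49.6 to 142 CPM within wild type, and XLOC_006412 spread from 3.09 to 24.4 CPM within YAP5SA.

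The loci with most fragments lay on the mitochondrial genome. XLOC_025428, which spans the ribosomal RNA genes, stood at 655, 685, 649 and 664 CPM in wild type and at 559, 616, 600 and 566 CPM in YAP5SA. It fell by 0.18 ± 0.05 on the log2 scale (SE; edgeR adjusted p = 0.033). This call was lost without any one library other than YAP5SA 2, at adjusted p of 0.052 to 0.11, and at 0.105 with Xist as a covariate. XLOC_025430, around mt-Nd5, stood at 643 ± 21.9 and 586 ± 37.4 CPM (SD, n = 4) with an edgeR adjusted p of 0.15.

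One locus lies on the Y chromosome. XLOC_026747 has 41 of its 142 bases on exons of the pseudogene Gm20775. It held 1.20 to 1.74 CPM in wild type and 1.35 to 2.63 CPM in YAP5SA, without a call (edgeR adjusted p = 0.61). It was present in all 8 libraries, among them YAP5SA 1, 3 and 4, where Ddx3y stood at 0. Gm20775 is 99.7% identical over its whole length to Rmi1, an autosomal gene at 17.2 ± 0.60 in wild type and 19.3 ± 1.05 CPM in YAP5SA (SD, n = 4). The level on this locus did not follow that of Ddx3y.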

How the data were processed

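The deposited read-group table gives raw fragments per locus and library in the form of estimated counts, made by the authors with TopHat2 2.0.9, Cufflinks 2.2.1 and Cuffdiff on mm10, per the submitters' processing notes. Between 0.501% and 0.564% of the values at unnamed loci were not whole, and all were rounded. The deposited FPKM values, which the authors scaled for length and depth, were used in alternatives only. Loci were placed on GENCODE M21 (GRCm38) with bedtools 2.31.1, counting positions from 1. Differences between the genotypes were fitted in edgeR 4.0.16 (robust quasi-likelihood) on all 18556 loci with at least 40 fragments. Library sizes and TMM factors came from named loci, and p-values were adjusted by Benjamini-Hochberg over all loci. Log2 ratios to the nearest named locus or, for pseudogenes, to the closest protein-coding transcript (blastn 2.17.0, match over at least 50%) were fitted with limma 3.58.1 after adding a prior count of 2. SD is over the 4 libraries of a genotype. Fragments carry no molecular identifiers, so intervals cover counting error only.

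The unnamed loci, the gene lists and the pairs were chosen with earlier results of these data known. Loci were picked for naming as the 10 largest rises and 10 largest falls without overlap of the genotypes and the 10 most abundant. Up to 6 called loci that differed most from their neighbour and the 3 on each side of the threshold were added. The locus on chromosome Y was also picked, and others were chosen after their values were seen. Not every locus picked is described, and those left out include rises, falls and abundant loci without a call. The scripts were tested on simulated data. Alternatives were DESeq2 1.42.0, limma on counts and on FPKM, other scalings and filters, subsets of loci, and leaving out each library. Xist as a covariate and the pseudogene pairs were added after seeing the data. The replicate numbers were not used to pair libraries. One locus is not reported here.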

Additional observations from a re-analysis of the deposited data

Results flagged for a closer look

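In each genotype a library was marked when its gap to the nearest other library exceeded Dixon's 95% limit for 4 values. Chance marks about 1 in 20 groups, and 136 groups were examined, of which 6 were marked. XLOC_007476 stood at 0.671 CPM in YAP5SA 4, against 2.07 to 2.3 CPM in the other YAP5SA libraries. XLOC_019129, on the pseudogene Gm4877, stood at 0.94 CPM in YAP5SA 4, against 3.38 to 3.6 CPM in the others. XLOC_022572, on Rps13-ps2, stood at 0.134 CPM in YAP5SA 4, which is 1 fragment, against 0 in the others. XLOC_012244 stood at 0.586 CPM in wild type 2, against 0.15 to 0.158 CPM in the other wild type libraries. XLOC_017932, on Wdr66, stood at 3.78 CPM in wild type 4, against 1.2 to 1.61 CPM. XLOC_014429, in the neighbourhood of Foxa2, stood at 49.9 CPM in YAP5SA 1, against 21.1 to 24.4 CPM in the other YAP5SA libraries. The epithelial marker Cdh1 stood at 169 CPM in YAP5SA 1, against 101 to 121 CPM in the others, and its part in that value was not tested.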

How the results depend on the processing

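Of the 66 rises and 62 falls, 37 and 29 were called in all 8 fits without 1 library, and 56 and 49 were also called by DESeq2. Rises numbered 38 among the 2045 loci at least 5000 bases from a named locus and 42 with Xist as a covariate. Falls numbered 38 and 41 in those fits and 98 by limma on log2(FPKM + 1). Leaving out 1 library gave 47 to 62 rises and 33 to 62 falls. The 135 pairs that moved apart from the neighbour became 208 with the nearest named locus of at least 40 fragments, and 58 to 137 without 1 library. The 3 pseudogene pairs became 0 on FPKM ratios and 1 to 3 without 1 library. The cause of these changes was not tested, apart from the fewer loci in the subset. Among 1511 alternative fits of single loci picked for naming, 169 lost the call, 1 gained it and 1341 were scored as unchanged. Reversals of called loci numbered 0. A change of sign at a locus without a call, or a missing adjusted p, was scored as unchanged. XLOC_012165, for example, ran from -0.65 to 0.37 on the log2 scale without 1 library.

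Libraries with the same replicate number deviated together with correlations of 0.194, 0.0668, 0.11 and 0.162, not all over 0.1, so the numbers were not taken to pair them. Each of the 4 wild type libraries correlated best with the YAP5SA library of its own number, a hint from the data and not from the design. With the replicate number as a block there were 75 rises, 65 falls, 104 pairs apart from the neighbour and 5 pseudogene pairs. The block ended the calls of the Muc16 loci XLOC_024699, XLOC_025312 and XLOC_024701 (adjusted p = 0.0613, 0.0601 and 0.0605). It also ended those of the ratios to the neighbour at XLOC_022879 (0.122), XLOC_008627 (0.0524), XLOC_002677 (0.0604) and XLOC_001433 (0.0576).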
